A study of Mus musculus with 12 samples.

Results

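Genes of the lysosome and of endosome acidification were followed in murine splenic B cells cultured with 1 of 3 classes of CpG oligodeoxynucleotide (ODN). The set holds 46 genes: 16 encode subunits or partners of the vacuolar proton pump, 9 encode proteases, 4 a thiol reductase and nucleases, 7 hydrolases or their activators, 8 membrane and lipid export proteins, and 2 the transcription factors Tfeb and Tfe3. Members were taken by gene symbol from the deposited table and had to exceed 1 FPKM (fragments per kilobase of transcript, scaled to the mapped fragments of the library) in at least 3 of 12 libraries. All 46 listed genes were in the table and all 46 passed, out of 15853 genes and loci that passed the same filter, of which 10860 were known genes. The members lay on 20 chromosomes, and 14 of them (30.4%) carry a lysosome term of the Gene Ontology in the deposited table, against 1.4% of the known genes tested.

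The study compared B cells of BALB/c mice aged 42 to 49 post natal days, in 4 groups of 3 libraries each: an untreated control labelled "control", and cells given CpG-A, CpG-B or CpG-C at 1 µM. Every group was cultured for 24 h in RPMI-1640 medium with fetal bovine serum, penicillin and streptomycin, and all libraries were made from total RNA. The sequence and backbone of each ODN, what the control cells received in its place, how the B cells were purified and whether the 3 libraries of a group came from separate mice or cultures are not given in the sources used here. P-values therefore measure the spread between these libraries, which may be technical.

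CpG ODN are sensed by the receptor TLR9, which signals only from endosomes and lysosomes. The vacuolar ATPase (V-ATPase) acidifies these compartments: its cytosolic V1 sector splits ATP and turns the membrane-bound V0 sector, which moves protons into the lumen. Low pH activates cathepsins and asparagine endopeptidase, and these proteases cut the ectodomain of TLR9 in mouse cells before it can signal. Lysosomal nucleases digest the DNA that reaches the compartment, and TFEB and TFE3 drive many lysosomal genes through a DNA site with the core TCACGTGA. In B cells the same compartment also cuts the invariant chain and loads peptides on MHC class II.

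Both the core TCACGTGA and the wider E-box CACGTG, which lies within it, were looked for in the 250 bases before and 50 bases after each gene start in RefSeq (build GRCm38.p6). Both motifs read the same on either strand, so 1 search covers both. Of the 46 members 38 had an entry in the RefSeq promoter table; Atp6v1c1, Atp6v0a2, Atp6v1b2, Atp6v1h, Ctsh, Atp6v1g1, Ctsb and Npc1 are not in that table. The core was present in the promoters of 7 of 38 members (18.4%) and of 1.12% of all 27025 genes of the table. The E-box was present in 13 of 38 (34.2%) and in 8.09% of all genes. Genes of that table were not filtered for expression here, whereas every member passed the filter, so the shares are of unlike sets. The 7 stretches with the core are shown because their genes did not share a direction in the comparisons that follow. Each is read 5′ to 3′ on the strand of its gene, with the core in capitals:
Atp6v0d1 (chr8:105566050-105566079): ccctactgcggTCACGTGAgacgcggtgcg
Atp6v0e (chr17:26676387-26676416): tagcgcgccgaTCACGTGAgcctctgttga
Atp6v1a (chr16:44139373-44139402): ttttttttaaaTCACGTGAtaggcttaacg
Ctsa (chr2:164833749-164833778): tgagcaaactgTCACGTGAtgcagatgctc
Ctsd (chr7:142387908-142387937): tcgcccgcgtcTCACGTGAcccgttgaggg
Ifi30 (chr8:70766842-70766871): atccaaaaactTCACGTGAccagacatgct
Mcoln1 (chr8:3500462-3500491): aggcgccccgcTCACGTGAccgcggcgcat

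Of these 7 genes, Atp6v0e and Atp6v1a passed the test as higher than control with all 3 ODN classes, Ctsa, Ifi30 and Mcoln1 as lower with all 3, and Atp6v0d1 and Ctsd with none while all libraries were in the fit. The RefSeq start equals the 5′ end of the deposited gene model for Mcoln1, Ifi30 and Atp6v0e and lies elsewhere for the other 4. The whole stretch before the start is given for Mcoln1, the calcium channel of the lysosome, because that gene fell with every class under every scaling tried (chr8:3500269-3500518, plus strand, core in capitals). Its core begins at position -46 counted from the start, and another E-box that is not part of a core stands in lower case further upstream:
Mcoln1: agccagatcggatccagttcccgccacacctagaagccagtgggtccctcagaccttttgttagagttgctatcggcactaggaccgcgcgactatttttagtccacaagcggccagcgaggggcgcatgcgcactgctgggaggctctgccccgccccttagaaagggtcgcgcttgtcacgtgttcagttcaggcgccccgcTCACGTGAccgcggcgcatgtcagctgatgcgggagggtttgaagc
Among the promoters with an E-box but no core was that of Lgmn, which encodes asparagine endopeptidase and moved in opposite directions with CpG-A and with the other two classes (E-box in capitals, chr12:102439125-102439152):
Lgmn: ggaatgtctgtCACGTGgtccattttat
A match is a description of the letters only, and no test was made on it.

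The libraries held an estimated 14.3 to 16.9 M (1e+06) mapped fragments in the control, 21.2 to 22.2 with CpG-A, 24.7 to 25.0 after CpG-B and 24.8 to 25.9 after CpG-C, as read from the steps between low FPKM values. The B cell markers Ms4a1, Cd79a, Cd79b, Pax5, Cd22, Blk and Ebf1 all exceeded 1 FPKM in every group, and these 7 genes summed to 3660 to 3920 FPKM in control, 2820 to 2910 with CpG-A, 2820 to 3250 after CpG-B and 2420 to 3120 after CpG-C. The 18 macrophage markers summed to 18 to 21.0 FPKM in control, 25.8 to 26.5 with CpG-A, 1.39 to 2.51 after CpG-B and 2.52 to 3.16 after CpG-C. Adgre1 and Axl made up most of that. Of the 18 markers, 5 averaged above 1 FPKM in control, 3 with CpG-A, 0 after CpG-B and 1 after CpG-C. Csf1r, Cd14 and Lyz2, of the same list, stayed at or below 0.343 FPKM on average in every group. Vcam1, Slc40a1, Marco and Vsig4 were listed at 0 after CpG-B and CpG-C. Sums for 8 conventional dendritic cell markers were 2.48 to 3.64, 2.04 to 2.79, 6.86 to 19.0 and 5.18 to 10.9 FPKM in the 4 groups in the same order, led by Flt3 after CpG-B and CpG-C. For 6 plasmacytoid dendritic cell markers they ran from 16.3 to 21.5 over all libraries. That sum hides opposite changes. Of the 3 markers that entered the test described below, 2 were higher and 1 lower than control with CpG-B and with CpG-C, and 0 were called with CpG-A. T cell, neutrophil and erythroid or platelet markers summed to at most 6.74 FPKM in any library. Because these are bulk samples, fewer cells of a type and less RNA per cell cannot be told apart.

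The third libraries of CpG-B and of CpG-C stood apart from the other 2 of their group. For the lysosomal genes, library 3 was below both others in 34 of 46 after CpG-B and in 33 of 46 after CpG-C, against 49.4% and 47.5% of all known genes, and 30 genes were low in both. The median member was -0.19 on the log2 scale in library 3 of either group relative to the mean of the other 2, and the median known gene -0.03 and -0.02. All 4 nuclease and reductase genes, 7 of 8 membrane genes and 6 of 9 proteases were among the 30, but only 2 of 8 V1 subunits. The median coefficient of variation of a member within its group was 6.29% in control, 4.79% with CpG-A, 8.99% after CpG-B and 10.8% after CpG-C. What sets these 2 libraries apart was not tested. The counts are given both ways, as are the changes from control that gained or lost a call without them. The 2 libraries were picked out because they deviated, and leaving them out takes their spread from the error shared by all groups. For CpG-A against control, whose own libraries stayed the same, the genes and loci called rose from 10426 to 12042. P-values without the third libraries thus tend to be too small, and a call gained only that way is weak evidence.

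**Figure D1:**
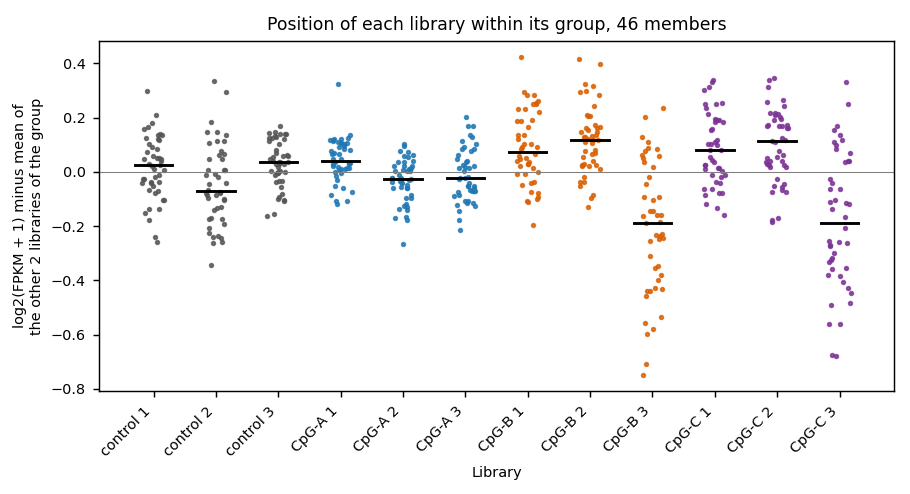
Each point is 1 of the 46 lysosomal genes, placed by its log2(FPKM + 1) in a library minus the mean of the other 2 libraries of the group, and the bar is the median over genes. The bars of library 3 of CpG-B and of CpG-C lie at -0.19, below those of the other 10 libraries.

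In unstimulated B cells the set was well expressed, with a median level of 31.8 FPKM, and 39 of 46 genes stood at 10 FPKM or more in all 12 libraries. Ifi30, the thiol reductase GILT that opens disulphide bonds of antigens, was the highest at 412 ± 9.83 FPKM (SD, n = 3). Psap, the precursor of the saposins that activate sphingolipid hydrolases, followed at 340.0 ± 14.2 FPKM, which is beyond the spread of either gene. The cysteine proteases Ctsh and Ctss came next at 209 ± 12.9 and 198 ± 12.5 FPKM, within 1 SD of each other. The lowest were the membrane proteins Cd68 at 3.59 ± 0.593 and Cd63 at 1.15 ± 0.26 FPKM, and the protease Ctsl at 1.86 ± 0.0115 FPKM. Cd63 and Ctsl were the 2 genes that did not exceed 1 FPKM in every library. Their control levels lie close to those of the median unnamed locus of the same libraries, which was 1.15 to 2.37 FPKM in control, 0.24 to 0.42 with CpG-A and 0.05 to 0.08 after CpG-B and CpG-C.

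After 24 h with an ODN the set did not move as a block. With CpG-A 17 genes were higher than control and 8 lower, by limma's moderated test on log2(FPKM + 1) with Benjamini-Hochberg adjustment over all 15853 genes and loci at 0.05. The share of all genes and loci called in that comparison was 65.8%, and of known genes 54.8% (32.8% higher and 22.1% lower). CpG-B gave 17 higher and 13 lower members, where 77.5% of everything tested and 70.2% of known genes were called (34.8% higher, 35.3% lower, and 51.8% lower with the unnamed loci). CpG-C gave 17 higher and 12 lower, beside 77.4% and 70.2% (35.7% higher, 34.5% lower, and 51.3% lower with the unnamed loci). The members' shares, 54.3%, 65.2% and 63.0%, were thus at or below the background of known genes, and a call in this experiment is common. The median member change was 0.09, 0.07 and 0.06 on the log2 scale with CpG-A, CpG-B and CpG-C, and that of known genes 0.05, 0.00 and 0.01. Libraries were all above control for 19 members and all below for 12 with CpG-A, where 39.9% and 30.3% of known genes did so. For CpG-B these counts were 18 and 14, beside 37.4% in each direction, and for CpG-C 17 and 13, beside 37.4% and 36.9%. These 3 comparisons share the control libraries. Over all 6 comparisons 111 member changes were called, and 0 of them had the opposite sign in the log2 ratios of the authors' deposited table. Those ratios describe the same libraries, so the like signs are a check of reading and no separate support.

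The direction of many small changes depended on the scaling. The sum of all FPKM values rose from 439388 to 448497 in control to 483209 to 490017 with CpG-A, 525217 to 578445 after CpG-B and 520317 to 543495 after CpG-C. Rescaling each library to a common total (TPM) moved the median known gene to -0.08, -0.28 and -0.22 with CpG-A, CpG-B and CpG-C, and scaling by the median of ratios moved it to 0.13, 0.34 and 0.34. Under TPM scaling the members split into 10 higher and 13 lower with CpG-A, 6 and 20 after CpG-B, and 6 and 19 after CpG-C. Of 10860 known genes, 2678 were higher and 3216 lower with CpG-A, 2513 and 5388 after CpG-B, and 2689 and 5037 after CpG-C. Under median-of-ratios scaling the members split into 21 and 4, 32 and 6, and 32 and 7. Among known genes the counts were 4108 and 1862, 5906 and 2141, and 5920 and 2130 in the same order. With upper-quartile scaling 12 members were higher and 12 lower with CpG-A, beside 2822 and 3166 known genes. Member changes that passed in the same direction under the deposited scaling and all 3 others numbered 10 higher and 4 lower with CpG-A, 6 and 6 after CpG-B, and 6 and 7 after CpG-C. Such changes are called steady in what follows. Where a gene is said not to pass, the deposited scaling is meant unless another is named. Some of those genes passed with another scaling. Without library 3 of CpG-B and of CpG-C the member counts were 19 higher and 12 lower with CpG-A, and 23 and 12 with each of CpG-B and CpG-C. Of known genes 4259 were then higher and 3262 lower with CpG-A, 4224 and 4027 after CpG-B, and 4237 and 4035 after CpG-C.

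Across the 3 classes, 12 genes were higher with all, 6 were lower with all and 11 passed with none. Without the third libraries these counts were 15, 8 and 4, and 7 of the 11 passed with at least 1 class. The genes steadily higher with every class were Grn, Gusb, Ctsb, Npc2 and Atp6v1a. Those steadily lower with every class were Mcoln1 and Scarb2. Another 6 genes, Ctsh, Ctss, Npc1, Psap, Dnase2a and Lipa, passed as lower with CpG-B and CpG-C and did not pass with CpG-A, though Npc1 (-0.30 ± 0.07, adjusted p = 0.00271) and Dnase2a did without the third libraries. Lgmn was lower with CpG-A and higher with the other two, and Cd63 was higher with CpG-A and lower with CpG-B.

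**Figure D2:**
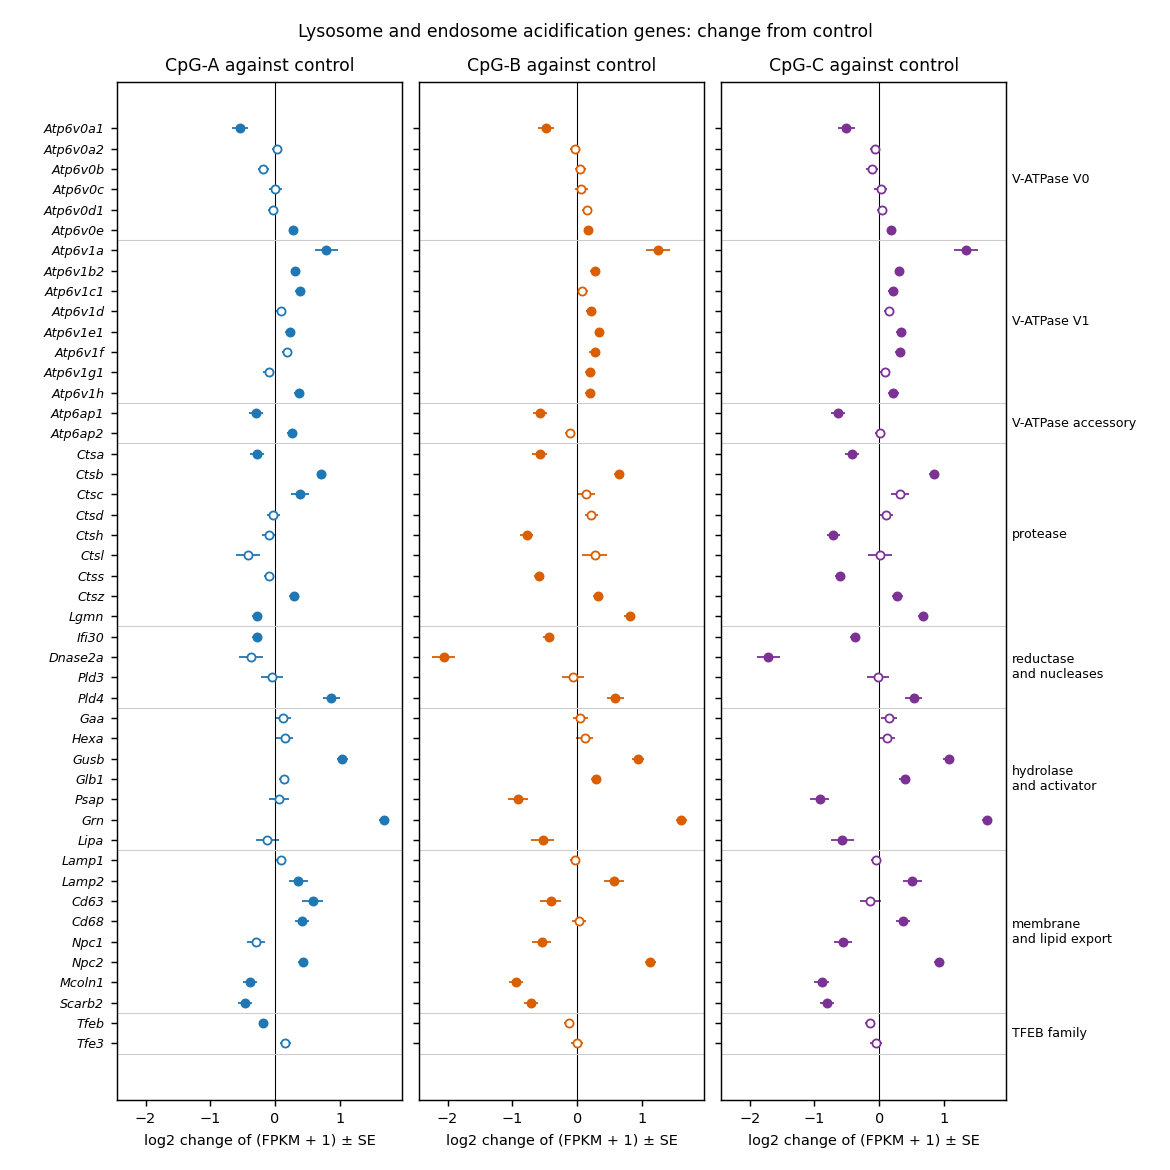
Change of each of the 46 genes from control with CpG-A, CpG-B and CpG-C, on the log2(FPKM + 1) scale with its standard error, grouped by role. Filled points passed at an adjusted p under 0.05, and open points did not. The filled points run from -2.06 (Dnase2a with CpG-B) to 1.68 (Grn with CpG-A).

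In the proton pump, a single subunit moved far: Atp6v1a, the catalytic subunit of V1 that hydrolyses ATP. Atp6v1a measured 15.6, 14.6 and 15.3 FPKM in control libraries 1 to 3, 27.4, 27.3 and 26.3 with CpG-A, 43.1, 45.6 and 26.7 after CpG-B and 46.2, 43.2 and 31.6 after CpG-C. Every treated library was above every control library, and the third libraries of CpG-B and CpG-C were the lowest of their groups, that of CpG-B at the level of the CpG-A libraries. Here and below, log2 changes refer to log2(FPKM + 1), ± is its standard error, and p is adjusted as above. The means were 1.78-fold, 2.54-fold and 2.66-fold the control with CpG-A, CpG-B and CpG-C (log2 change 0.79 ± 0.18 with CpG-A, 1.25 ± 0.18 after CpG-B and 1.34 ± 0.18 after CpG-C, adjusted p = 0.0018, 3.5e-05 and 1.99e-05). Without the third libraries its change was 1.49 after CpG-B and 1.5 after CpG-C, and no scaling took the call away.

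The other V1 subunits changed by less. Of the 8 V1 genes, 5 were higher with CpG-A, 7 after CpG-B and 6 after CpG-C, and none was lower. Of known genes 32.8%, 34.8% and 35.7% were higher and 22.1%, 35.3% and 34.5% lower in the same order. The counts per role that follow stand beside these shares. With TPM scaling 5 of the 7 CpG-B changes and 2 of the 6 CpG-C changes turned to just below zero. Beyond Atp6v1a no V1 change was thus steady with CpG-B or CpG-C. With CpG-A, Atp6v1c1, which joins V1 to V0, rose steadily by 0.39 ± 0.08 (SE, adjusted p = 0.00078), and the regulatory subunit gene Atp6v1h rose steadily by 0.37 ± 0.08 (SE, adjusted p = 0.00179). The level of Atp6v1e1 was 29.2, 31.9 and 28.3 FPKM in the 3 control libraries, 33.2, 35.7 and 36.6 in those with CpG-A, 36.6, 38.5 and 39.0 after CpG-B and 36.1, 36.7 and 40.1 after CpG-C. That gene encodes a subunit of the peripheral stalk; all treated libraries were above the controls (log2 change 0.23 ± 0.07 with CpG-A, 0.34 ± 0.07 after CpG-B and 0.33 ± 0.07 after CpG-C, adjusted p = 0.0148, 0.000996 and 0.00135), and the CpG-A call was lost without control library 3 (adjusted p = 0.0586) or CpG-A library 3 (adjusted p = 0.0585). Atp6v1b2, the nucleotide-binding B2 subunit, was 1.25-fold, 1.21-fold and 1.25-fold the control with CpG-A, CpG-B and CpG-C. Atp6v1f, a subunit of the rotor, passed with CpG-B and CpG-C only, at 1.21-fold and 1.25-fold, and its CpG-A difference missed the threshold (adjusted p = 0.0514), which it passed without the third libraries (adjusted p = 0.0273). 

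Several of these small calls lay near the threshold and were lost without any 1 of several libraries. Levels of Atp6v1g1 stood at 50.7, 46.1 and 43.1 FPKM in control, at 45.7, 40.9 and 44.0 with CpG-A, at 53.4, 52.3 and 55.2 after CpG-B and at 51.4, 50.3 and 46.9 after CpG-C. This stalk subunit was higher with CpG-B (log2 change 0.20 ± 0.08, adjusted p = 0.0287), did not pass with the other classes, and lost the CpG-B call without control library 2 or 3 or CpG-B library 1 or 3 (adjusted p = 0.0573 to 0.12). For Atp6v1c1 the libraries gave 23.9, 25.3 and 22.9 FPKM in control, 32.6, 30.5 and 32.6 with CpG-A, 25.7, 23.9 and 26.8 after CpG-B and 28.1, 25.7 and 30.4 after CpG-C. Its 3 CpG-A libraries were above all others, and its CpG-C change (log2 change 0.21 ± 0.08, adjusted p = 0.0265) was lost without control library 1 or 3 or CpG-C library 1 or 3 (adjusted p = 0.0612 to 0.0907). Atp6v1d, a rotor subunit, passed with CpG-B alone (log2 change 0.21 ± 0.08, adjusted p = 0.0308) and lost the call without control library 1 or 3 or CpG-B library 1 or 2 (adjusted p = 0.0518 to 0.125). Atp6v1h passed with CpG-B at an adjusted p of 0.0473, which rose to between 0.0592 and 0.132 without any 1 of 9 libraries, and its CpG-C call was lost without control library 1 or 3 or CpG-C library 3 (adjusted p = 0.0511 to 0.103), while its change with CpG-C moved from 0.22 to 0.14 without library 3 of both groups.

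On the deposited scale the membrane sector differed from V1. Of 6 V0 genes, 1 was higher and 1 lower with each class. The lower one was Atp6v0a1, whose protein forms the proton path with the ring of c subunits. Atp6v0a1 measured 64.7, 54.9 and 61.1 FPKM in control libraries 1 to 3, 43.5, 43.0 and 37.2 with CpG-A, 46.9, 48.1 and 35.0 after CpG-B and 44.1, 46.5 and 35.9 after CpG-C. All treated libraries lay below all controls (log2 change -0.54 ± 0.13 with CpG-A, -0.48 ± 0.13 after CpG-B and -0.51 ± 0.13 after CpG-C, adjusted p = 0.00329, 0.0055 and 0.00359), and the CpG-A change was steady, whereas with median-of-ratios scaling the CpG-B and CpG-C changes were -0.10 and -0.15 and no longer passed. The higher one was Atp6v0e. The level of Atp6v0e was 79.4, 72.6 and 76.2 FPKM in the 3 control libraries, 95.7, 90.5 and 91.8 in those with CpG-A, 82.7, 87.3 and 87.1 after CpG-B and 82.8, 87.5 and 87.6 after CpG-C. The groups did not overlap with control (log2 change 0.28 ± 0.06 with CpG-A, 0.17 ± 0.06 after CpG-B and 0.18 ± 0.06 after CpG-C, adjusted p = 0.00154, 0.0242 and 0.0212), yet with TPM scaling the CpG-B and CpG-C changes were -0.13 and -0.08, the CpG-B call was lost without control library 2 or 3 or CpG-B library 2 (adjusted p = 0.0504 to 0.0745) and the CpG-C call without control library 2 or CpG-C library 2 (adjusted p = 0.0591 and 0.0647).

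Atp6v0c, the proton-binding c subunit of the ring, passed with no class. Levels of Atp6v0c stood at 94.3, 123 and 101 FPKM in control, at 111, 99.2 and 108 with CpG-A, at 105, 111 and 114 after CpG-B and at 101, 108 and 113 after CpG-C. The control libraries spanned the levels of all other groups (adjusted p = 0.571 to 0.979 over the 3 classes). Neither did Atp6v0a2, Atp6v0b or Atp6v0d1 pass with any class. By median of ratios, however, Atp6v0a2, Atp6v0b, Atp6v0c and Atp6v0d1 passed as higher with CpG-B, at 0.32, 0.43, 0.44 and 0.52. With CpG-C they did so at 0.28, 0.25, 0.39 and 0.4, and Atp6v0e also passed as higher with both. With TPM scaling Atp6v0a2 and Atp6v0c passed as lower with both classes, and Atp6v0b with CpG-C. Without the third libraries Atp6v0d1 passed with CpG-B (0.20 ± 0.05, adjusted p = 0.00426) and Atp6v0b with CpG-A (-0.18 ± 0.04, adjusted p = 0.00388) and CpG-B (0.13 ± 0.05, adjusted p = 0.0263), so that 1 V0 gene was higher and 2 lower with CpG-A and 3 higher and 1 lower with CpG-B. Summed over subunits, V1 measured 307 ± 4.16 FPKM in control, 360.0 ± 7.77 with CpG-A, 384 ± 6.20 after CpG-B and 389 ± 1.98 after CpG-C (SD, n = 3), and 292 ± 3.65, 333 ± 7.32, 345 ± 4.26 and 348 ± 9.65 without Atp6v1a. V0 measured 373 ± 6.72, 362 ± 11, 378 ± 15.8 and 362 ± 10.0 FPKM in the same order. The V1 sum thus lay above control in all 9 treated libraries on the FPKM scale and the V0 sums overlapped; no test was made on sums.

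The 2 accessory proteins of the pump parted. Atp6ap1, which helps assemble the pump, was lower with every class. For Atp6ap1 the libraries gave 79.0, 71.2 and 81.8 FPKM in control, 64.7, 58.8 and 65.0 with CpG-A, 53.1, 55.6 and 46.3 after CpG-B and 54.0, 53.1 and 41.5 after CpG-C. Treated libraries were all below the controls (log2 change -0.29 ± 0.11 with CpG-A, -0.57 ± 0.11 after CpG-B and -0.64 ± 0.11 after CpG-C, adjusted p = 0.0305, 0.000362 and 0.000152). The CpG-C change alone was steady; the CpG-A call was lost without control library 1 or 3 or CpG-A library 1 or 2 (adjusted p = 0.0504 to 0.108), and with median-of-ratios scaling the changes with CpG-A and CpG-B no longer passed. Atp6ap2 measured 27.7, 30.2 and 29.5 FPKM in control libraries 1 to 3, 35.2, 33.5 and 36.6 with CpG-A, 27.1, 27.9 and 25.7 after CpG-B and 29.7, 29.6 and 28.3 after CpG-C. Atp6ap2, the prorenin receptor, passed as higher with CpG-A and with no other class (log2 change 0.26 ± 0.07, adjusted p = 0.00408), a call that upper-quartile and TPM scaling took away (adjusted p = 0.0741 and 0.183).

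**Figure D3:**
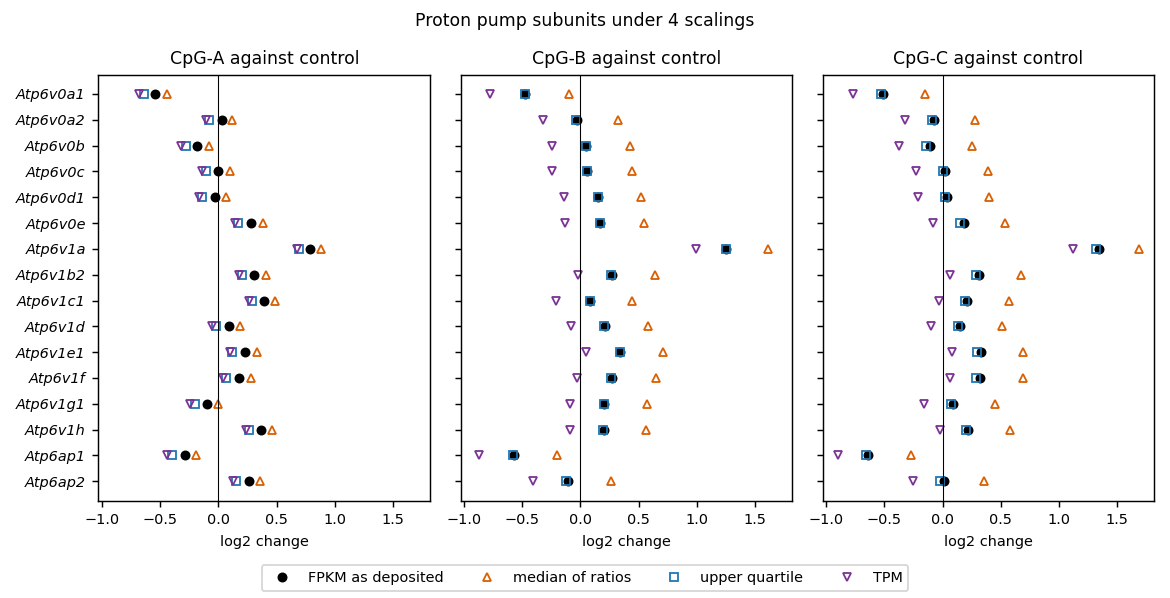
Log2 change from control of the 16 proton pump genes with CpG-A, CpG-B and CpG-C under 4 scalings of the same libraries. Atp6v1a stays well above zero under all of them, from 0.68 to 1.69 over the 3 classes, while most other V1 subunits lie on both sides of zero with CpG-B and with CpG-C.

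Among the 9 proteases, 3 rose and 2 fell with CpG-A, and 3 rose and 3 fell with each of CpG-B and CpG-C. Ctsb, a cysteine cathepsin, rose steadily with all classes. The level of Ctsb was 18, 16.4 and 18.2 FPKM in the 3 control libraries, 29.9, 29.5 and 28.9 in those with CpG-A, 29.0, 29.3 and 25.4 after CpG-B and 32.5, 32.4 and 31.5 after CpG-C. No treated library came near the controls, and the means were 1.68-fold, 1.59-fold and 1.83-fold the control (log2 change 0.71 ± 0.07 with CpG-A, 0.64 ± 0.07 after CpG-B and 0.84 ± 0.07 after CpG-C, adjusted p = 1.1e-05, 5.11e-06 and 7.52e-07). Ctsz, a carboxypeptidase, was 1.23-fold, 1.25-fold and 1.22-fold the control, but with TPM scaling none of the 3 changes passed.

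Lgmn, the asparagine endopeptidase that cuts antigens and TLR9, was called in opposite directions with different classes, as was Cd63, described with the membrane proteins. Levels of Lgmn stood at 34.4, 28.8 and 33.9 FPKM in control, at 26.7, 25.9 and 26.4 with CpG-A, at 58.4, 59.2 and 54.6 after CpG-B and at 50.3, 50.5 and 56.2 after CpG-C. The CpG-A libraries were the lowest of the 12 and the CpG-B and CpG-C libraries the 6 highest, with no overlap between either and the control. It was 0.815-fold the control with CpG-A (log2 change -0.28 ± 0.08, adjusted p = 0.00801), 1.77-fold with CpG-B (log2 change 0.81 ± 0.08, adjusted p = 1.87e-06) and 1.62-fold with CpG-C (log2 change 0.68 ± 0.08, adjusted p = 6.77e-06). The rises were steady, and the CpG-A fall did not pass with median-of-ratios scaling (adjusted p = 0.0784).

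The most abundant cathepsins fell with CpG-B and CpG-C. For Ctsh the libraries gave 205, 199 and 223 FPKM in control, 199, 187 and 198 with CpG-A, 127, 129 and 109 after CpG-B and 137, 139.7 and 108 after CpG-C. Ctsh, an aminopeptidase, was in 1 range in the control and CpG-A libraries and lower in all 6 others (log2 change -0.78 ± 0.10 after CpG-B and -0.71 ± 0.10 after CpG-C, adjusted p = 2e-05 and 4.47e-05), a steady fall with both; with CpG-A it did not pass (adjusted p = 0.417). Ctss measured 185, 210.5 and 198 FPKM in control libraries 1 to 3, 178, 176 and 204 with CpG-A, 128, 132 and 132 after CpG-B and 134, 133 and 121 after CpG-C. Ctss, which cuts the invariant chain in B cells, was likewise lower in all 6 CpG-B and CpG-C libraries than in any other (log2 change -0.59 ± 0.08 after CpG-B and -0.61 ± 0.08 after CpG-C, adjusted p = 1.7e-05 and 1.38e-05). Its CpG-C fall was steady, and the CpG-B fall had an adjusted p of 0.0502 with median-of-ratios scaling. The level of Ctsa was 68.6, 60.3 and 67.5 FPKM in the 3 control libraries, 56.2, 53.9 and 51.0 in those with CpG-A, 46.2, 47.0 and 37.4 after CpG-B and 51.0, 53.7 and 41.8 after CpG-C. Ctsa, a carboxypeptidase that protects other hydrolases, was below control in all treated libraries (log2 change -0.28 ± 0.11 with CpG-A, -0.58 ± 0.11 after CpG-B and -0.42 ± 0.11 after CpG-C, adjusted p = 0.0406, 0.000378 and 0.00387); the fall was steady with CpG-B alone, and the CpG-A call was lost without any 1 of the control libraries 1 or 3 or the CpG-A libraries (adjusted p = 0.0545 to 0.118).

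Ctsl, a cysteine cathepsin named as a processor of TLR9 in mouse macrophages, was scarce here. Levels of Ctsl stood at 1.87, 1.87 and 1.85 FPKM in control, at 1.17, 0.98 and 1.28 with CpG-A, at 2.93, 2.96 and 1.64 after CpG-B and at 2.38, 2.38 and 1.11 after CpG-C. The CpG-A libraries lay below the controls and below the CpG-B libraries, and the other pairs of groups overlapped. Ctsl passed against control with no class (adjusted p = 0.0755, 0.221 and 0.955). Without the third libraries its changes were -0.42 with CpG-A, 0.46 after CpG-B and 0.24 after CpG-C (adjusted p = 0.000789, 0.00072 and 0.0283). The CpG-A change was -0.42 in both fits while its SE went from 0.19 to 0.08, so that call came with the smaller shared error. Ctsd, the aspartic cathepsin, measured 37.3 ± 1.65 FPKM in control and 36.6 ± 2.08, 43.8 ± 4.39 and 40.4 ± 4.84 FPKM with the 3 classes and passed with none, though without the third libraries it passed with CpG-B and CpG-C (adjusted p = 0.000808 and 0.00839). Ctsc, the dipeptidyl peptidase that activates granule proteases, passed with CpG-A (log2 change 0.38 ± 0.14, adjusted p = 0.032), a call lost without any 1 of the control or CpG-A libraries (adjusted p = 0.0534 to 0.0924). Without the third libraries Ctsc passed with CpG-B and CpG-C too, at 0.32 and 0.45.

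The nucleases that limit or process DNA ligands went different ways. Dnase2a, the acid endonuclease that digests DNA in the lysosome, had the largest change of the 46 genes on the deposited scale, where with median-of-ratios scaling Grn, at 1.98 and 2.02 for CpG-B and CpG-C, exceeded its -1.70 and -1.36. For Dnase2a the libraries gave 37.0, 38.8 and 38.0 FPKM in control, 31.2, 28.4 and 28.2 with CpG-A, 10.4, 9.88 and 5.62 after CpG-B and 11.9, 12.4 and 8.66 after CpG-C. The CpG-B and CpG-C libraries were all far below the others, and the CpG-A libraries lay between, below control without overlap. Its mean was 0.228-fold the control with CpG-B (log2 change -2.06 ± 0.18, adjusted p = 9.24e-07) and 0.290-fold with CpG-C (log2 change -1.71 ± 0.18, adjusted p = 3.12e-06), both steady. The CpG-A difference did not pass (adjusted p = 0.0967), but did without the third libraries of the other classes, whose spread enters the shared error (log2 change -0.37 ± 0.05, adjusted p = 0.000149). Without those libraries the falls with CpG-B and CpG-C were -1.81 and -1.56.

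Pld4, an exonuclease that removes single-stranded DNA from the 5′ end and so restrains TLR9 in mice, rose. Pld4 measured 68.7, 69.2 and 70.8 FPKM in control libraries 1 to 3, 135, 126 and 122 with CpG-A, 114, 113 and 89.2 after CpG-B and 113, 113 and 80.0 after CpG-C. All treated libraries were above all controls, CpG-A highest, and the third libraries of CpG-B and CpG-C were the lowest of their groups. The level was 1.84-fold, 1.52-fold and 1.46-fold the control (log2 change 0.87 ± 0.13 with CpG-A, 0.59 ± 0.13 after CpG-B and 0.53 ± 0.13 after CpG-C, adjusted p = 9.86e-05, 0.0013 and 0.00274); the CpG-A rise was steady, and the other two did not pass with TPM scaling (adjusted p = 0.0973 and 0.117). The level of Pld3 was 41.3, 34.2 and 41.0 FPKM in the 3 control libraries, 39.3, 37.6 and 35.3 in those with CpG-A, 40.9, 40.7 and 30.1 after CpG-B and 44.7, 45 and 27.7 after CpG-C. Pld3, the related exonuclease, overlapped between all groups and passed with no class (adjusted p = 0.731 to 0.932); without the third libraries it passed with CpG-C (0.21 ± 0.08, adjusted p = 0.0343).

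Ifi30 was lower than control with each class, from the highest level of the set. Levels of Ifi30 stood at 408, 404 and 423 FPKM in control, at 340.4, 347 and 327 with CpG-A, at 316, 313 and 281 after CpG-B and at 343, 337 and 281 after CpG-C. No treated library reached the controls, and the means were 0.822-fold, 0.737-fold and 0.778-fold the control (log2 change -0.28 ± 0.08 with CpG-A, -0.44 ± 0.08 after CpG-B and -0.37 ± 0.08 after CpG-C, adjusted p = 0.011, 0.000434 and 0.00173). The CpG-A fall was steady. With median-of-ratios scaling the CpG-B change was -0.06 and the CpG-C change 0.0043, and neither passed. The calls with those 2 classes thus depended on the scaling, and only the CpG-C change altered its sign.

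Of the 7 hydrolases and activators, Grn and Gusb rose with all classes by the largest and most even amounts. Grn encodes progranulin, a precursor of lysosomal granulins that has been described as a carrier of CpG ODN to TLR9 in mouse macrophages. For Grn the libraries gave 45.3, 42.4 and 43.7 FPKM in control, 143, 144 and 138 with CpG-A, 142, 146 and 120.3 after CpG-B and 139, 137 and 145 after CpG-C. The treated libraries were at about the same level in all classes and none came near the controls, with means 3.24-fold, 3.11-fold and 3.21-fold the control (log2 change 1.68 ± 0.08 with CpG-A, 1.61 ± 0.08 after CpG-B and 1.66 ± 0.08 after CpG-C, adjusted p = 6.78e-08, 9.22e-09 and 7.12e-09). Gusb measured 15.4, 14.7 and 15.1 FPKM in control libraries 1 to 3, 34, 32.4 and 30.0 with CpG-A, 29.2, 29.4 and 31.2 after CpG-B and 30.4, 30.3 and 38.5 after CpG-C. Gusb, the β-glucuronidase, again had every treated library above every control at like levels, 2.13-fold, 1.99-fold and 2.19-fold the control (log2 change 1.04 ± 0.09 with CpG-A, 0.94 ± 0.09 after CpG-B and 1.07 ± 0.09 after CpG-C, adjusted p = 5.29e-06, 1.83e-06 and 7.5e-07). Both genes rose steadily with every class.

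Psap did the reverse with CpG-B and CpG-C. The level of Psap was 324, 350.3 and 346 FPKM in the 3 control libraries, 369.5, 346 and 351 in those with CpG-A, 200.3, 198 and 147 after CpG-B and 201, 207 and 138 after CpG-C. Control and CpG-A overlapped, all CpG-B and CpG-C libraries were lower, and library 3 was the lowest of each. The mean was 0.534-fold the control with both (log2 change -0.91 ± 0.15 after CpG-B and -0.92 ± 0.15 after CpG-C, adjusted p = 0.000127 and 0.000118), steady with either, and -0.77 and -0.74 without the third libraries; with CpG-A it did not pass (adjusted p = 0.728). Lipa, the acid lipase that frees cholesterol from esters, was 0.687-fold and 0.664-fold the control with CpG-B and CpG-C (log2 change -0.53 ± 0.18 after CpG-B and -0.57 ± 0.18 after CpG-C, adjusted p = 0.0195 and 0.013). Those calls were lost with median-of-ratios scaling, the first also without control library 1 or 3 or CpG-B library 3 (adjusted p = 0.0632 to 0.0873) and the second without CpG-C library 3 (adjusted p = 0.0577), and the CpG-B change was -0.33 without library 3 of both groups. Glb1, the β-galactosidase, passed as higher with CpG-B and CpG-C at 1.24-fold and 1.33-fold, neither of which passed with TPM scaling (adjusted p = 0.885 and 0.189). Gaa, the α-glucosidase, and Hexa, a subunit of β-hexosaminidase, passed with no class; without the third libraries Hexa passed with all 3 and Gaa with CpG-C.

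**Figure D4:**
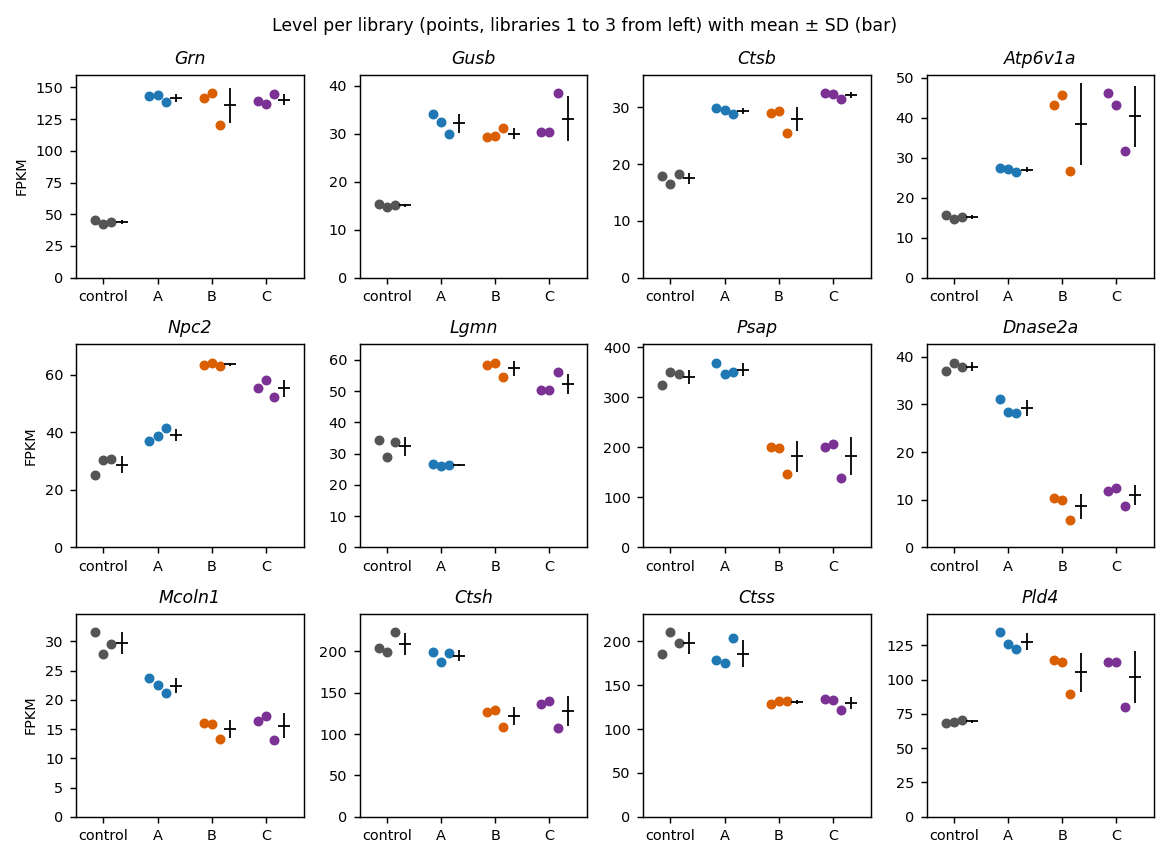
FPKM in each library for 12 of the genes, with libraries 1 to 3 of a group from left to right and the group mean ± SD as a bar. Grn, Gusb and Ctsb are higher in every treated library, Lgmn and Npc2 are highest with CpG-B and CpG-C, and Psap, Dnase2a, Ctsh and Ctss are lowest with those 2 classes.

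Of the 8 membrane and lipid export genes, 4 rose and 2 fell with CpG-A, 2 rose and 4 fell with CpG-B, and 3 rose and 3 fell with CpG-C. Npc2, the soluble lumenal protein that hands cholesterol to NPC1, rose steadily with every class. Levels of Npc2 stood at 25.3, 30.2 and 30.6 FPKM in control, at 37.1, 38.5 and 41.4 with CpG-A, at 63.5, 64.2 and 63.0 after CpG-B and at 55.3, 58.0 and 52.3 after CpG-C. The order was control, CpG-A, CpG-C, CpG-B without overlap between neighbours, and the difference between CpG-C and CpG-B missed the threshold (adjusted p = 0.769). The means were 1.36-fold, 2.22-fold and 1.92-fold the control with CpG-A, CpG-B and CpG-C (log2 change 0.43 ± 0.08 with CpG-A, 1.13 ± 0.08 after CpG-B and 0.92 ± 0.08 after CpG-C, adjusted p = 0.000509, 2.29e-07 and 8.97e-07). Its partner Npc1, the membrane transporter, was lower with CpG-B and CpG-C (log2 change -0.55 ± 0.14 after CpG-B and -0.56 ± 0.14 after CpG-C, adjusted p = 0.0036 and 0.00325), from 8.22 ± 0.809 to 5.33 ± 1.05 and 5.28 ± 0.977 FPKM, and neither change passed with median-of-ratios scaling.

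Mcoln1, the mucolipin channel that releases calcium from lysosomes, fell with every class, and more with CpG-B and CpG-C. For Mcoln1 the libraries gave 31.6, 27.9 and 29.6 FPKM in control, 23.8, 22.5 and 21.1 with CpG-A, 16, 15.8 and 13.2 after CpG-B and 16.4, 17.2 and 13.1 after CpG-C. The CpG-A libraries stood between the control and the other 6 without overlap. Means were 0.756-fold, 0.506-fold and 0.525-fold the control (log2 change -0.39 ± 0.11 with CpG-A, -0.94 ± 0.11 after CpG-B and -0.89 ± 0.11 after CpG-C, adjusted p = 0.00698, 5.43e-06 and 8.19e-06), all steady. Scarb2 measured 17.2, 16.2 and 17.1 FPKM in control libraries 1 to 3, 12.1, 11.7 and 12 with CpG-A, 11.2, 10.6 and 8.12 after CpG-B and 9.43, 10.2 and 8.02 after CpG-C. Scarb2, the LIMP-2 receptor that carries glucocerebrosidase to the lysosome, was below control in every treated library, at 0.710-fold, 0.593-fold and 0.548-fold (log2 change -0.46 ± 0.11 with CpG-A, -0.71 ± 0.11 after CpG-B and -0.81 ± 0.11 after CpG-C, adjusted p = 0.0031, 8.67e-05 and 2.92e-05), also steady with every class.

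The lysosomal coat proteins differed. The level of Lamp1 was 74.9, 71.0 and 75.8 FPKM in the 3 control libraries, 79.3, 72.5 and 85.3 in those with CpG-A, 73.9, 77 and 66.2 after CpG-B and 73.0, 74.2 and 67.6 after CpG-C. Lamp1 overlapped between all groups and passed with no class (adjusted p = 0.331 to 0.724). Lamp2, which also serves in chaperone-mediated autophagy, measured 31.2 ± 1.88 FPKM in control, 40.4 ± 0.291 with CpG-A, 47.5 ± 10.0 after CpG-B and 45.3 ± 7.57 after CpG-C (log2 change 0.36 ± 0.15 with CpG-A, 0.57 ± 0.15 after CpG-B and 0.51 ± 0.15 after CpG-C, adjusted p = 0.0498, 0.00416 and 0.00791). The CpG-A call was lost without any 1 of 8 libraries (adjusted p = 0.0504 to 0.128), and none of the 3 passed with TPM scaling. Levels of Cd68 stood at 4.24, 3.08 and 3.45 FPKM in control, at 5.43, 5.13 and 4.82 with CpG-A, at 3.47, 3.69 and 3.85 after CpG-B and at 5.43, 5.06 and 4.23 after CpG-C. Cd68, a glycoprotein known from macrophage lysosomes, was higher with CpG-A and CpG-C (log2 change 0.42 ± 0.11 with CpG-A and 0.37 ± 0.11 after CpG-C, adjusted p = 0.00556 and 0.0104), the latter with libraries that overlapped the control and lost with TPM scaling (0.18, adjusted p = 0.242), and with CpG-B it did not pass (adjusted p = 0.805). Cd63, a tetraspanin, was 1.15 ± 0.26 FPKM in control and 2.23 ± 0.455 with CpG-A (log2 change 0.58 ± 0.16, adjusted p = 0.00669), a steady rise at a low level. With CpG-B it was 0.627 ± 0.316 FPKM (log2 change -0.41 ± 0.16, adjusted p = 0.0326), a call lost without control library 2 or CpG-B library 1 or 3 (adjusted p = 0.0561 to 0.145), and -0.26 without library 3 of both groups, which did not pass (adjusted p = 0.13). The sum of macrophage markers given above moved in the same direction as Cd63 and Cd68 with CpG-A and as Cd63 after CpG-B. Cd68 did not follow that sum in the other classes. After CpG-B the sum fell, and Cd68 stayed near its control level (log2 change 0.03). After CpG-C the sum fell from 18 to 21.0 FPKM in control to 2.52 to 3.16, while Cd68 was called higher. Cd63 did not pass with CpG-C (log2 change -0.14). Of 5 such markers tested, 3 were higher and 2 lower than control with CpG-A. Counts were 0 higher and 4 lower after CpG-B, and likewise after CpG-C. The part of such cells in these levels was not tested.

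On the deposited scale the transcription factors changed little. For Tfeb the libraries gave 45.5, 43.3 and 46.2 FPKM in control, 41.4, 38.9 and 38.7 with CpG-A, 40.8, 42.0 and 40.0 after CpG-B and 40.2, 43.0 and 38.6 after CpG-C. Every treated library was below every control library by a small margin. Tfeb passed with CpG-A only (log2 change -0.18 ± 0.07, adjusted p = 0.0305), a call lost without control library 1 or 3 or CpG-A library 2 or 3 (adjusted p = 0.0798 to 0.0937) and with median-of-ratios scaling; with CpG-B and CpG-C it did not pass (adjusted p = 0.0792 and 0.0575). Tfe3 measured 15.4, 12.9 and 15.5 FPKM in control libraries 1 to 3, 16.6, 17.3 and 15.5 with CpG-A, 13.8, 13.9 and 16.1 after CpG-B and 13.6, 14.2 and 14.2 after CpG-C. Tfe3 overlapped between control, CpG-B and CpG-C and passed with no class (adjusted p = 0.126, 0.975 and 0.591). For both genes the result with CpG-B and CpG-C depended on the scaling. By median of ratios Tfeb passed as higher at 0.24 and 0.22, and Tfe3 at 0.36 and 0.29. With TPM scaling Tfeb passed as lower at -0.43 and -0.4, and Tfe3 at -0.29 and -0.3.

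**Figure D5:**
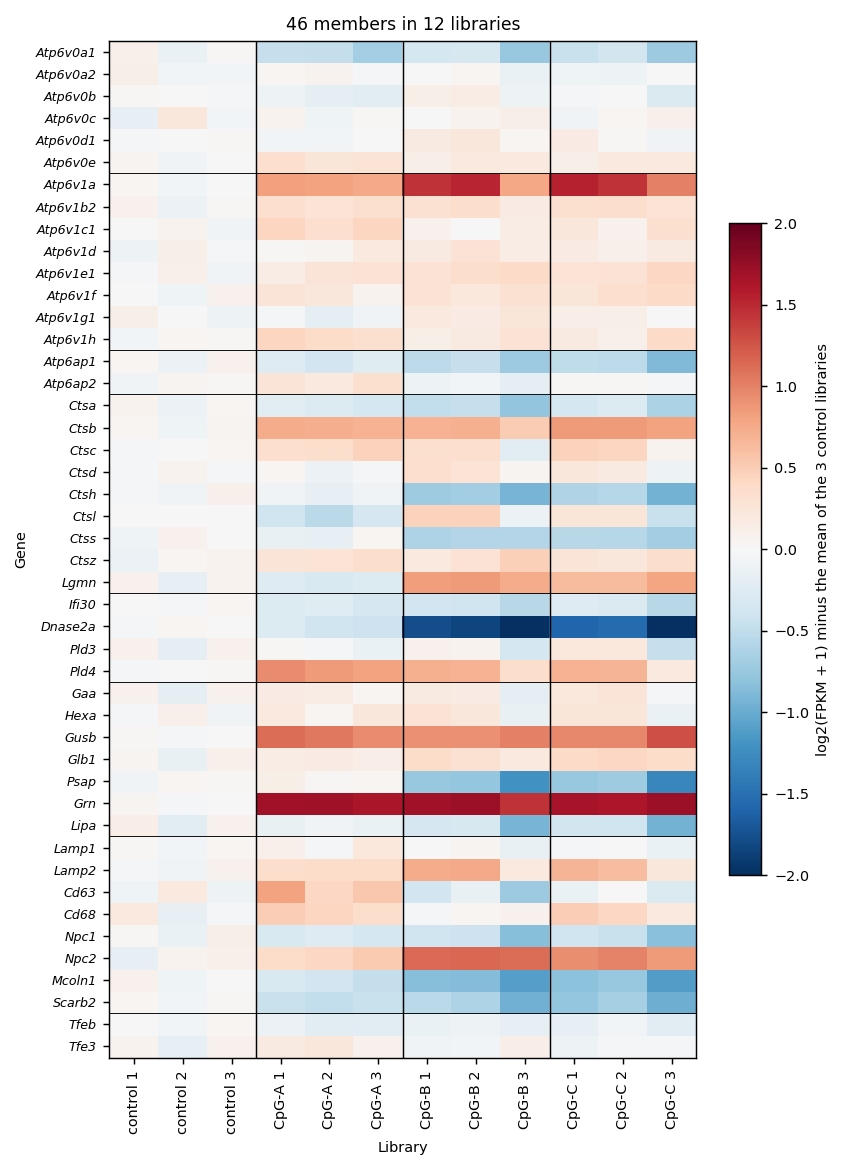
The 46 genes in all 12 libraries, as log2(FPKM + 1) minus the mean of the 3 control libraries, with the colour scale ending at -2.0 and 2.0. The CpG-B and CpG-C columns resemble each other, and in both groups library 3 is the palest for Atp6v1a and Pld4 and the darkest blue for Psap and Dnase2a.

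Set against CpG-A, CpG-B gave 4 members higher and 10 lower, where 44.6% of everything tested and 46.8% of known genes were called (17.7% higher and 29.2% lower), and the members' share was 30.4%. CpG-C against CpG-A gave 4 higher and 9 lower, 28.3% of members, beside 40.7% and 39.7% (15.4% higher and 24.3% lower). Under the other scalings the CpG-B split was 19 higher and 5 lower by median of ratios, 11 and 8 by upper quartile and 3 and 21 by TPM, and the CpG-C split 19 and 5, 7 and 6, and 2 and 16. Of 10860 known genes, 3557 and 1135, 2444 and 2107, and 1342 and 4890 were higher and lower for CpG-B in that order. For CpG-C these counts were 3306 and 932, 2043 and 1768, and 1252 and 4063. Without the third libraries the member split was 10 and 14 in both, beside 2433 and 3815 known genes for CpG-B and 2241 and 3637 for CpG-C. With the replicate number as a block, which the check of the libraries did not show to pair the CpG-A samples with the others, 7 members were higher with CpG-B, beside 2055 known genes. All CpG-B libraries were above all CpG-A libraries for 7 members and below for 19, beside 22.9% and 39.8% of known genes, and for CpG-C the counts were 6 and 15, beside 20.8% and 36.2%. These 2 comparisons share the CpG-A libraries.

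Differences from CpG-A that passed with both classes were found in 9 genes, and in 21 without the third libraries. Dnase2a, Psap, Ctsh, Mcoln1 and Ctss were lower than with CpG-A, and all 5 were also below control with both classes. Dnase2a differed most (log2 change -1.69 ± 0.18 for CpG-B and -1.35 ± 0.18 for CpG-C, adjusted p = 3.16e-05 and 0.000215). Psap followed at about 0.511-fold the CpG-A level with either class (log2 change -0.98 ± 0.15 for CpG-B and -0.99 ± 0.15 for CpG-C, adjusted p = 0.000426 and 0.000521). Ctsh differed by less (log2 change -0.68 ± 0.10 for CpG-B and -0.61 ± 0.10 for CpG-C, adjusted p = 0.000395 and 0.00103), as did Mcoln1 (log2 change -0.55 ± 0.11 for CpG-B and -0.51 ± 0.11 for CpG-C, adjusted p = 0.00189 and 0.00384) and Ctss (log2 change -0.50 ± 0.08 for CpG-B and -0.52 ± 0.08 for CpG-C, adjusted p = 0.000418 and 0.00045). With median-of-ratios scaling the 2 Ctss differences were -0.23 and -0.25 and did not pass; the other 4 genes differed steadily. Lgmn was higher, at 2.18-fold and 1.99-fold its CpG-A level (log2 change 1.09 ± 0.08 for CpG-B and 0.96 ± 0.08 for CpG-C, adjusted p = 1.38e-06 and 5.81e-06). Npc2 was also higher (log2 change 0.69 ± 0.08 for CpG-B and 0.49 ± 0.08 for CpG-C, adjusted p = 6.43e-05 and 0.000905), and both genes differed steadily with both classes. The remaining 2 were Cd63, steadily lower at levels near 1 FPKM, and Atp6ap2, whose CpG-C difference was -0.26 as deposited and 0.01 by median of ratios. Macrophage markers Adgre1 and Axl, at 11.8 and 8.73 FPKM with CpG-A, were at 0.633 and 0.290 after CpG-B and 1.2 and 0.553 after CpG-C. Of 5 macrophage markers tested, 0 were higher and 4 lower than with CpG-A, with either class. That is the direction of the 5 lower genes, and the markers Csf1r, Cd14 and Lyz2 were low in every group, as given above. The part of other cells in the differences of these genes was not tested.

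Other differences from CpG-A were less firm. Atp6v1a was higher with CpG-C (log2 change 0.54 ± 0.18, adjusted p = 0.0316), a call lost without any CpG-A library or CpG-C library 1 or 2 (adjusted p = 0.0685 to 0.108) or with TPM scaling (adjusted p = 0.0847), and missed the threshold with CpG-B (adjusted p = 0.0534). Without the third libraries both passed, at 0.70 ± 0.05 and 0.71 ± 0.05 (SE). Atp6v1g1 was higher and Atp6v1c1 lower with CpG-B (log2 change 0.30 ± 0.08 for Atp6v1g1 and -0.31 ± 0.08 for Atp6v1c1, adjusted p = 0.00923 and 0.0083), neither steadily. Ctsl was higher with CpG-B (log2 change 0.69 ± 0.19, adjusted p = 0.0148), lost without CpG-A library 2 or CpG-B library 1 or 2 (adjusted p = 0.0544 to 0.0588). Ctsa and Cd68 were lower with CpG-B (log2 change -0.30 ± 0.11 for Ctsa and -0.39 ± 0.11 for Cd68, adjusted p = 0.0427 and 0.0166). The former was lost without control library 1, any CpG-A library, CpG-B library 1 or 3 or CpG-C library 1 (adjusted p = 0.0511 to 0.138), and the latter without CpG-A library 1 or CpG-B library 1 (adjusted p = 0.0636 and 0.0537). With median-of-ratios scaling they were -0.03 and -0.16, and neither passed with it (adjusted p = 0.793 and 0.209) or by upper quartile (adjusted p = 0.166 and 0.052). With CpG-C, Glb1 was higher (log2 change 0.24 ± 0.08, adjusted p = 0.033), which was lost without any CpG-A library or CpG-C library 1 or 2 (adjusted p = 0.0736 to 0.0911) and with TPM scaling (0.14, adjusted p = 0.249). Atp6ap1 and Scarb2 were lower with CpG-C (log2 change -0.35 ± 0.11 for Atp6ap1 and -0.35 ± 0.11 for Scarb2, adjusted p = 0.0262 and 0.0308), the former lost without CpG-A library 1 or 3 or CpG-C library 3 (adjusted p = 0.067 to 0.0841) and the latter without any CpG-A library or CpG-C library 1 or 3 (adjusted p = 0.0619 to 0.0881). By median of ratios these differences were -0.08 and -0.10, and neither passed (adjusted p = 0.489 and 0.393), nor by upper quartile (adjusted p = 0.0896 and 0.0927).

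No difference between CpG-C and CpG-B was called in these genes. In this comparison 0 of 46 members passed in either direction, where 29 of 15853 genes and loci (0.183%, of which 0.114% higher and 0.0694% lower) did by the same limma fit, and 0.258% of known genes (0.166% higher and 0.0921% lower), and 3 members had an unadjusted p under 0.05: Ctsb at 0.20 and Cd68 at 0.33 higher, and Npc2 at -0.20, lower with CpG-C (adjusted p = 0.642, 0.574 and 0.769). All CpG-C libraries were above all CpG-B libraries for 3 members and below for 2, where 6.1% and 7.43% of known genes were. The differences ran from -0.26 for Ctsl to 0.34 for Dnase2a on the log2 scale. The 95% intervals of 42 genes lay within 0.5 of zero and those of all 46 within 1, the widest reaching -0.68 for Ctsl and 0.74 for Dnase2a. Of the other settings tried none called a member, and the count at an unadjusted p under 0.05 ran from 2 to 12. The highest count came from a fit of the 6 CpG-B and CpG-C libraries alone with the replicate number as a block, chosen after the data were seen, because like-numbered libraries of these 2 groups deviated together, as libraries 1 and 2 did across numbers.

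Genes of the same pathways outside the set were read from lists, of which 121 of 138 genes passed the filter. With CpG-A 22 were higher and 28 lower, with CpG-B 22 and 56 and with CpG-C 26 and 57, which is 41.3%, 64.5% and 68.6% of them. Of all known genes 54.8%, 70.2% and 70.2% were called (32.8%, 34.8% and 35.7% higher, 22.1%, 35.3% and 34.5% lower). The counts per list that follow stand beside these shares. Among 12 tested genes for other pump subunits and assembly, 4, 3 and 4 were higher and 4, 4 and 4 lower with CpG-A, CpG-B and CpG-C. Ccdc115, a factor for assembly of the pump, was higher with CpG-B (log2 change 0.42 ± 0.09, adjusted p = 0.000785), and Rogdi, a relative of a yeast subunit that joins V1 to V0, was lower with all classes (log2 change -0.62 ± 0.15 with CpG-A, -0.86 ± 0.15 after CpG-B and -1.03 ± 0.15 after CpG-C, adjusted p = 0.00305, 0.000198 and 4.35e-05). Tcirg1, the a3 subunit of V0, was 44.6 ± 2.74 FPKM in control and 36.2 ± 1.04, 45.5 ± 6.14 and 41.0 ± 5.0 FPKM with the classes and passed with CpG-A (log2 change -0.29 ± 0.11, adjusted p = 0.0321). Atp6v0d2, a subunit isoform of osteoclasts and macrophages, averaged 0.267 FPKM in control and 0.05 with CpG-A, and was listed at 0 after CpG-B and CpG-C.

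In ion transport, Mcoln2, an endolysosomal channel related to Mcoln1, went from 30.8 ± 2.95 FPKM in control to 8.1 ± 1.43 after CpG-B and 8.98 ± 1.48 after CpG-C (log2 change -1.81 ± 0.13 after CpG-B and -1.68 ± 0.13 after CpG-C, adjusted p = 1.99e-07 and 3.5e-07), both steady, and did not pass with CpG-A. Clcn3, a chloride and proton exchanger of endosomes, was higher with CpG-B and CpG-C (log2 change 0.44 ± 0.12 after CpG-B and 0.62 ± 0.12 after CpG-C, adjusted p = 0.00499 and 0.000444). Of the 12 ion transport genes tested 1, 2 and 1 were higher and 2, 7 and 6 lower with CpG-A, CpG-B and CpG-C. Of 7 other lysosomal proteases 1 was higher with each class and 2, 6 and 6 were lower. The higher one was Napsa, the aspartic protease napsin A, at 161 ± 9.66 FPKM in control and 257 ± 12.6, 363 ± 16.1 and 344 ± 43.7 with the classes (log2 change 0.67 ± 0.09 with CpG-A, 1.17 ± 0.09 after CpG-B and 1.08 ± 0.09 after CpG-C, adjusted p = 6.52e-05, 4.94e-07 and 8.05e-07), steady with each. Dpp7, a dipeptidase of lysosomes, had the lowest value with CpG-B (log2 change -0.96 ± 0.09, adjusted p = 9.64e-07).

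The inhibitors of cathepsins parted as well: of 3 tested, 2, 1 and 2 were higher and 1 was lower with each class. Cst3, cystatin C, a secreted inhibitor of cysteine proteases, fell steadily from 295 ± 16.4 to 153 ± 14.0, 115 ± 8.49 and 105 ± 13.8 FPKM (log2 change -0.95 ± 0.10 with CpG-A, -1.35 ± 0.10 after CpG-B and -1.5 ± 0.10 after CpG-C, adjusted p = 1.68e-05, 3.58e-07 and 1.73e-07). Cstb, the cytosolic cystatin B, rose steadily (log2 change 0.50 ± 0.11 with CpG-A, 0.60 ± 0.11 after CpG-B and 0.68 ± 0.11 after CpG-C, adjusted p = 0.00145, 0.000275 and 0.000101). Of 26 other hydrolases 4, 6 and 6 were higher and 7, 11 and 12 lower. The sulphatase Galns, which acts on keratan sulphate, was 2.35-fold and Sgsh, which acts on heparan sulphate, 0.339-fold the control with CpG-B (log2 change 1.16 ± 0.09 for Galns and -1.46 ± 0.14 for Sgsh, adjusted p = 2.66e-07 and 1.95e-06).

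Among 17 other membrane proteins and transporters 2, 4 and 4 were higher and 7, 9 and 10 lower. The peptide and histidine transporters Slc15a3 and Slc15a4 moved apart. Slc15a3 rose steadily from 10.0 ± 0.778 FPKM to 21.3 ± 1.35, 26.9 ± 8.45 and 25.6 ± 5.03 FPKM (log2 change 1.01 ± 0.21 with CpG-A, 1.29 ± 0.21 after CpG-B and 1.26 ± 0.21 after CpG-C, adjusted p = 0.000863, 9.31e-05 and 0.000117). Slc15a4, which mouse cells need for TLR7 and TLR9 signalling, fell steadily from 42.8 ± 1.94 FPKM to 30.8 ± 0.381, 23.2 ± 2.18 and 22.3 ± 2.63 FPKM (log2 change -0.46 ± 0.09 with CpG-A, -0.86 ± 0.09 after CpG-B and -0.92 ± 0.09 after CpG-C, adjusted p = 0.00068, 3.08e-06 and 1.94e-06).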

How the data were processed

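FPKM of 12 libraries, computed by the authors, rounded to 2 decimals and deposited as a single table, were the data used. Per the submitters' processing notes, tools were RSEM 1.2.8, Bowtie2 2.2.5, StringTie, HISAT and GATK, on mm10, and the role of each is not stated there. Beside FPKM, the authors deposited log2 ratios, read here for their sign, and a p-value and q-value per comparison, not used here. Of 28021 entries 2 named no gene, and 28019 were used (19682 known genes and 8337 unnamed loci). A count model was not fitted, since FPKM are normalized. Fragment numbers were estimated from the steps between low values, and such intervals as they allow cover counting error only.

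Genes and loci above 1 FPKM in at least 3 libraries, 15853 in all, entered a fit of 4 group means to log2(FPKM + 1) with limma 3.58.1 (trend, R 4.3.3), which understates the change of low genes. P-values were 2-sided and adjusted by the Benjamini-Hochberg method over all of them, called under 0.05. Python 3.11.15, pandas 2.3.3 and matplotlib 3.10.9 were used for tables and plots. The fit was tested on simulated data for CpG-B against control. It recovered 53% of 100 genes given a log2 change of 0.5 and 91% of 100 given a change of 1. A gene that did not pass may thus still have changed by such an amount. Alternatives were the pseudocount (0.1), the filter (5 FPKM or none), 3 other scalings, known genes only, the replicate number as a block, a fit of the 6 libraries compared, each library left out, and library 3 of both CpG-B and CpG-C left out. Members, lists and tests were chosen with earlier results of these data known. The third libraries of CpG-B and CpG-C were left out because they were seen to deviate, so p-values of that fit tend to be too small. Per-library values were printed for the highest and lowest called member of each role and class with at least 10 FPKM, and for Tfeb, Tfe3, Pld3, Pld4, Dnase2a, Ifi30, Ctsl, Ctsb, Ctss, Lgmn, Lamp1, Cd68, Atp6v0c and Atp6v1a whatever their result. From the other lists the highest and lowest called gene with CpG-B at 10 FPKM or more was named, and Tcirg1, Atp6v0d2, Slc15a4, Mitf, Flcn and Cst3.

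As a check of pairing, deviations from group means were correlated over genes: like-numbered CpG-B and CpG-C libraries gave r = 0.594, 0.538 and 0.745, unlike-numbered libraries 1 and 2 gave 0.509 and 0.551, so that the numbers 1 and 2 were not told apart, and pairs of library 3 with 1 or 2 gave -0.667 to -0.608. In no other pair of groups did every number exceed 0.1. Promoter sequences are RefSeq's, build GRCm38.p6. 1 item of the marker lists is not reported here.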

Additional observations from a re-analysis of the deposited data

How the results depend on the processing

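Counts of members past the threshold moved mainly with the scaling, and those of known genes under the same scalings are given above. With TPM scaling, against control 10 were higher and 13 lower with CpG-A, 6 and 20 with CpG-B, and 6 and 19 with CpG-C. With median-of-ratios scaling 4 were lower with CpG-A, 32 higher and 6 lower with CpG-B, and 32 higher and 7 lower with CpG-C. Against CpG-A, CpG-B gave 7 higher with a pseudocount of 0.1, 7 with the replicate block, 11 with upper-quartile scaling, 19 higher and 5 lower by median of ratios, and 21 lower by TPM. CpG-C gave 7 higher by upper quartile, 19 higher and 5 lower by median of ratios, and 2 higher and 16 lower by TPM. Without library 3 of CpG-B and of CpG-C 10 were higher with either, and 14 lower with CpG-C. Leaving out each library in turn gave 15 to 18 higher and 5 to 11 lower with CpG-A, 13 to 19 and 11 to 13 with CpG-B, and 15 to 18 and 11 to 13 with CpG-C. Against CpG-A it gave 3 to 9 and 8 to 14 for CpG-B, and 2 to 6 and 7 to 12 for CpG-C. For CpG-C against CpG-B it gave 0 and 0. Of the called changes from control, 19 of 25, 24 of 30 and 25 of 29 passed whichever library was left out, and against CpG-A 11 of 14 and 9 of 13.

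Single changes that reversed with TPM scaling were, for CpG-B, Atp6v0e at -0.13, Atp6v1b2 at -0.02, Atp6v1d at -0.08, Atp6v1f at -0.03, Atp6v1g1 at -0.09 and Atp6v1h at -0.09, and for CpG-C, Atp6v0e at -0.08, Atp6v1c1 at -0.03 and Atp6v1h at -0.02. By median of ratios those that reversed were Ifi30 at 0.0043 with CpG-C and Atp6ap2 at 0.01 for CpG-C against CpG-A. The scaling shifts every gene of a library together, by construction. The replicate block kept all 111 called changes. The cause of the other shifts was not tested. With 1 fragment per kilobase worth 0.039 to 0.07 FPKM, the low levels of Cd63, Ctsl and Cd68 rest on fewer fragments than those of other members.

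Over all genes and loci, the counts called against control with CpG-A, CpG-B and CpG-C were 10426, 12294 and 12268. They were 5191, 6578 and 6590 above 5 FPKM, 16891, 19869 and 19856 with no filter, and 5873, 7609 and 7626 for known genes only, since these settings test other numbers of genes. For CpG-C against CpG-A the count was 6456, and 3977 above 5 FPKM. For CpG-C against CpG-B limma called 29, and 19 with no filter, 87 without library 3 of both groups, and 0 in a fit of the 6 libraries compared with or without the replicate block, where 2613 and 973 had an unadjusted p under 0.05.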

Other observations

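3 further lists describe how proteins reach the lysosome and how the compartment is read by the cell. Their counts stand beside 54.8%, 70.2% and 70.2% of known genes called against control with CpG-A, CpG-B and CpG-C. Of 12 tested genes for sorting to the lysosome, 2 were higher and 2 lower than control with CpG-A, and 1 was higher and 5 lower with CpG-B and with CpG-C. Gga2, an adaptor that packs mannose-6-phosphate receptors at the Golgi, measured 80.7 ± 9.13 FPKM in control, 64.7 ± 2.08 with CpG-A, 33.2 ± 5.63 after CpG-B and 33.6 ± 7.49 after CpG-C (SD, n = 3), and fell with CpG-B and CpG-C under every scaling tried (log2 change -1.26 ± 0.16 after CpG-B and -1.26 ± 0.16 after CpG-C, adjusted p = 1.43e-05 and 1.48e-05). Ap3d1, a subunit of the AP-3 adaptor that carries membrane proteins to lysosomes, had the smallest called fall with CpG-B in that list (log2 change -0.20 ± 0.08, adjusted p = 0.032), which did not hold under every scaling.

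Of 15 tested genes for nutrient sensing at the lysosome, 3 were higher with each class and 1, 4 and 4 were lower with CpG-A, CpG-B and CpG-C. Flcn, folliculin, which controls the Rag GTPases and through them TFEB and TFE3, fell steadily from 32.6 ± 2.82 FPKM in control to 24.2 ± 1.96, 15.9 ± 2.12 and 16.3 ± 0.942 FPKM (log2 change -0.42 ± 0.11 with CpG-A, -1.0 ± 0.11 after CpG-B and -0.96 ± 0.11 after CpG-C, adjusted p = 0.00406, 2.98e-06 and 4.07e-06). Lamtor5, part of the Ragulator scaffold, was higher with CpG-B (log2 change 0.57 ± 0.11, adjusted p = 0.00047). Mitf, the relative of TFEB, averaged 0.68 ± 0.09 FPKM in control and 0.42 ± 0.0361, 0.29 ± 0.121 and 0.21 ± 0.0265 FPKM with the classes, and was below the filter.

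Of 17 genes for endosome maturation and fusion, 3, 1 and 4 were higher and 2, 9 and 9 lower with CpG-A, CpG-B and CpG-C. Pikfyve, the kinase whose lipid product opens the mucolipin channel, fell with CpG-B and CpG-C under every scaling (log2 change -0.93 ± 0.16 after CpG-B and -0.72 ± 0.16 after CpG-C, adjusted p = 0.000211 and 0.00151) and did not pass with CpG-A. Rab9, which serves traffic from late endosomes to the Golgi, was higher with CpG-B and CpG-C (log2 change 0.45 ± 0.10 after CpG-B and 0.35 ± 0.10 after CpG-C, adjusted p = 0.00112 and 0.00574), and neither change held under every scaling.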
